A study of Mus musculus with 4 samples.

Results

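Prostaglandin synthesis and receptor genes were examined in RNA of mouse glomeruli, the filtering units of the kidney. The 9 genes were Ptgs1, Ptgs2, Ptgds, Ptges, Ptges3, Ptgis, Ptger1, Ptger4 and Hpgd, taken by symbol from a deposited table of 22809 genes, and each matched 1 Ensembl ID. They were selected on measured values, namely the TPM of these same control and HDAC KO libraries, so their differences are given as a description and not as evidence. Poly(A) RNA was sequenced from 2 control libraries (labelled wild type, untreated) and 2 libraries labelled HDAC KO, a podocyte-specific deletion of Hdac1 and Hdac2, the genes of 2 related histone deacetylases. All glomeruli were isolated fresh from mice of 3 weeks of age, with 2 mice pooled per library, and the design text names 2 independent experiments. The sources used here do not name the driver of the deletion, its alleles or the strain. Each library is called a pool below, control or KO-labelled. Values are TPM, reads per gene length brought to 1 common total per library, so levels of different genes can be compared.

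Prostanoids are lipid signals made on demand from arachidonic acid, which phospholipases release from membranes. The cyclooxygenases encoded by Ptgs1 and Ptgs2 turn it into an unstable intermediate, and terminal synthases convert that into prostaglandin E, prostaglandin D, prostacyclin or thromboxane. Ptgs1 is generally made constitutively and Ptgs2 is induced by stress and cytokines. In the kidney these lipids act through G protein-coupled receptors on vessels, mesangial cells, podocytes and tubules, and regulate blood flow, renin release and salt handling.

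The KO-labelled pools held more Ptgds and Ptgs2 transcript than the controls, with little difference in Ptgs1 and Hpgd. Ptgds was 3.76-fold higher and Ptgs2 4.0-fold higher by the ratio of mean TPM. Ptges was 1.56-fold higher with libraries that nearly met, and Ptger1 was 1.56-fold lower. Among the 9 genes, 4 were higher in both KO-labelled pools than in either control (Ptgds, Ptgs2, Ptges and Ptges3), beside 36.7% of all tested genes. Only Ptger1 of the 9 was lower in both, beside 14.3% of all tested genes. The groups overlapped for Ptgs1, Ptgis, Ptger4 and Hpgd. Nothing is read from these counts, since the same contrast was used to pick the genes.

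Precision was limited by 2 libraries in each group. In limma's fit across 18612 genes, 1 gene passed a Benjamini-Hochberg adjusted p of 0.05, which is 0.00537% of those tested. That was the snRNA gene Gm22513, no prostaglandin gene, which was lower in the KO-labelled pools. No member passed by limma or by voom on the recovered reads, and the lowest adjusted p among them was 0.0928 by limma and 0.0561 by voom, both for Ptgds. Left-out libraries moved these calls: 2080 genes passed without control replicate 2, Ptgds among them (adjusted p = 0.0111 by limma), and 0 without control replicate 1, where 2220 genes stood above and 1277 below the controls at an unadjusted p under 0.05. The replicates are separate pools of mice. Recovered reads numbered between 12876939 and 20943138 per library. In the order control replicates 1 and 2 and KO replicates 1 and 2, 885, 329, 252 and 85 genes had 0 TPM. Mitochondrial transcripts held 40.2%, 46.5%, 40.8% and 38.7% of the TPM in that order. The part of these library differences in the calls was not tested. Neither target transcript was lower in the KO-labelled pools: Hdac1 was at 19.3 and 18.6 TPM in the control pools and 22.9 and 22.4 TPM in the KO-labelled pools, and Hdac2 was at 20.2, 24.1, 23.5 and 20.9 TPM in the same order. The deletion is podocyte-specific and the libraries also hold transcripts of other cell types, so these levels cannot show whether it took place. The direction of each difference therefore rests on the labels. The median log2 fold change of all tested genes was 0.17 with the TPM as given and -0.03 once scaled by median ratios, so values relative to that median are also given.

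Promoter sequence is shown for the pair with the highest folds, Ptgds and Ptgs2, to let the start regions be compared. RefSeq promoter windows of build GRCm38.p6 (250 bases before to 50 after a start) were matched for 7 of the 9 genes. Capitals mark every match to a searched motif on either strand. The searched motifs were the TATA box (TATAAA or TATAAG), the CAAT box CCAAT, the GC box GGGCGG, the E-box CACGTG and the cyclic AMP response element TGACGTCA. The AP-1 site TGACTCA, whose other strand reads TGAGTCA, and 2 forms of the NF-kappaB site were searched too. TTGCGCAA, a palindrome of the kind bound by C/EBP proteins, was added after the Ptgs2 sequence had been seen. The Ptgds stretch is chr2:25469750-25469869 on the minus strand, the 120 bases before the RefSeq start. This stretch lies inside the gene span given below, whose minus-strand start is at 25470046, so the annotations place the start differently. The Ptgs2 stretch is chr1:150099851-150100030 on the plus strand, the 180 bases before the start, followed by an 18-base site just after it at chr1:150100041-150100058.
Ptgds: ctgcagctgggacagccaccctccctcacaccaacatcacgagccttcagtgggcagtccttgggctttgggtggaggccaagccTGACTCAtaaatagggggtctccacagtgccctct
Ptgs2: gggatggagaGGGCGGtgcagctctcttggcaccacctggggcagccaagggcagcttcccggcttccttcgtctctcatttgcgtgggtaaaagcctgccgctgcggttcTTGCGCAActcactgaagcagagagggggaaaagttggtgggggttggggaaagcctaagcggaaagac
Ptgs2 site after the start: ctacgtCACGTGgagtcc

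The Ptgds window held TGACTCA, the letters of an AP-1 site, starting at position -35 from the RefSeq start. TGACTCA was in 5.2% of 32851 mouse promoter windows. The Ptgs2 window held GGGCGG at -170 (35.7% of windows), TTGCGCAA at -69 (0.183%) and the E-box CACGTG at 17 bases past the annotated start (7.15%). No searched motif was in both windows. GGGCGG was also in the windows of Hpgd, Ptger4, Ptges and Ptges3, and the window of Ptgs1 held none of the motifs. TATAAA was in the Hpgd window at 5 bases past the annotated start, not before it (13.6% of windows). CCAAT was in that of Ptger4 at -75 (37.4%). A match is a description of the letters and not a bound site.

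The cyclooxygenase genes stood far apart in level. Ptgs1 (chromosome 2, 36230426 to 36252272, plus strand, GRCm38) had 30.3 and 28.4 TPM in replicates 1 and 2 of the controls and 31.3 and 25.2 TPM in those of the KO-labelled group. The KO-labelled pools lay on either side of both controls. Its means were 29.3 ± 1.36 and 28.3 ± 4.30 TPM (SD, n = 2 each), with a log2 fold change of -0.06 (SE 0.19). Each log2 fold change is KO-labelled minus control after adding 1 to every TPM, so changes of low genes come out too small.

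Ptgs2 (chromosome 1, 150100031 to 150108227, plus strand) was at 0.261 and 0.776 TPM in the control pools and at 2.17 and 1.98 TPM in the KO-labelled pools. The 4 values rested on 8, 19, 71 and 76 reads. Exact Poisson 95% intervals, which cover counting error only, were 0.113 to 0.514 and 0.467 to 1.21 TPM in the control pools. They were 1.69 to 2.73 and 1.56 to 2.48 TPM in the KO-labelled pools, above the control intervals. The means were 0.518 ± 0.364 and 2.08 ± 0.128 TPM (SD, n = 2 each). The log2 fold change was 1.04 (SE 0.34), or 0.87 relative to the median of all genes, and 2.14 by voom on the recovered reads, where no pseudocount of 1 TPM damps it. Ptgs2 passed the filter of a mean of 1 TPM through the KO-labelled pools alone. It was still a low transcript there, at the 13.9th percentile of tested genes. As a share of Ptgs1 plus Ptgs2 TPM, Ptgs2 made up 0.855% and 2.66% in the control pools and 6.47% and 7.29% in the KO-labelled pools. Ptgs1 was thus the main cyclooxygenase transcript in each of the 4 libraries.

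**Figure D1:**
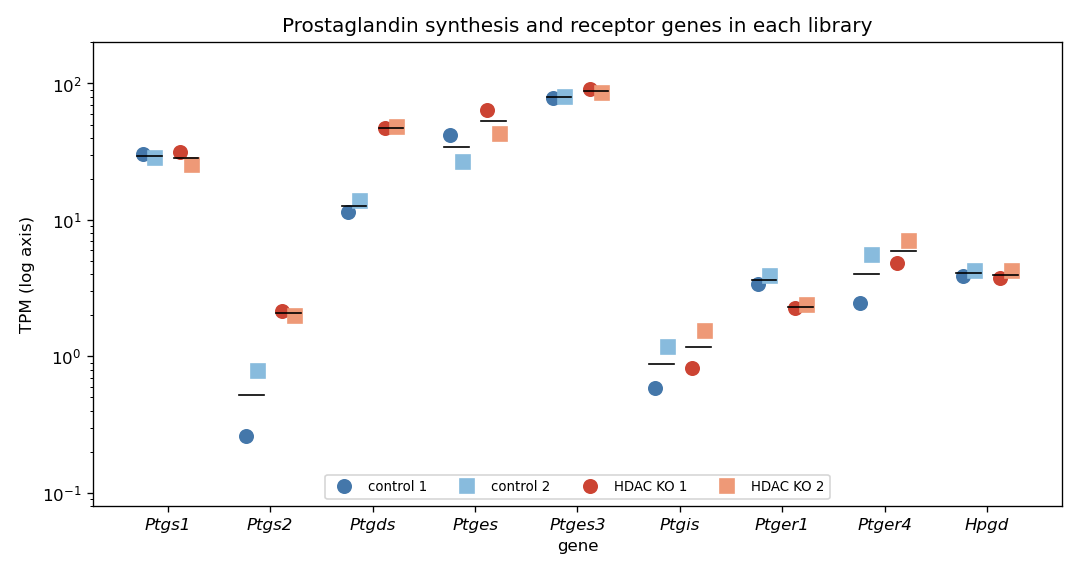
TPM of the 9 genes in each library on a log axis, with circles for replicate 1, squares for replicate 2 and black lines for group means (n = 2 each). Ptgds and Ptgs2 sit apart between the groups, while Ptgs1 and Hpgd lie together.

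Among the terminal synthases, Ptgds encodes the lipocalin-type prostaglandin D synthase, which also binds small lipophilic molecules outside the cell. Ptgds (chromosome 2, 25466709 to 25470046, minus strand) was at 11.4 and 13.8 TPM in the control pools and at 47.3 and 47.8 TPM in the KO-labelled pools. The lowest KO-labelled value exceeded the highest control by 33.4 TPM, and the libraries of a group differed by far less than that. These values came from 126, 122, 558 and 659 reads. The means were 12.6 ± 1.71 and 47.5 ± 0.365 TPM (SD, n = 2 each), with a log2 fold change of 1.84 (SE 0.18), or 1.67 relative to the median of all genes. Its mean stood at the 62.8th percentile of tested genes in the control pools and at the 89.7th in the KO-labelled pools.

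Ptges encodes the inducible microsomal prostaglandin E synthase, which works downstream of Ptgs2. Ptges (chromosome 2, 30889471 to 30929863, minus strand) was at 41.6 and 26.6 TPM in the control pools and at 64.2 and 42.6 TPM in the KO-labelled pools. Replicate 1 was above replicate 2 in both groups, by 0.62 log2 units in the control pools and 0.58 in the KO-labelled pools. The gap between KO replicate 2 and control replicate 1 was 0.950 TPM, so the groups barely separated. Between libraries of the same number the difference was 0.61 for replicate 1 and 0.66 for replicate 2 on the log2 scale. Whether the number marks a shared experiment is not stated. Over all 4 libraries the log2 fold change was 0.63 (SE 0.30).

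Ptges3 encodes a cytosolic prostaglandin E synthase that is better known as p23, a cochaperone of HSP90. It was the most abundant of the 9 transcripts, at 77.8 and 80.2 TPM in the control pools and at 90.9 and 85.5 TPM in the KO-labelled pools. The groups did not overlap, but the log2 fold change was 0.16 (SE 0.15), -0.01 relative to the median of all genes, and its sign turned with median-ratio scaling (-0.08). The HSP90 genes were also close between the groups, with log2 fold changes of -0.05 (SE 0.19) for Hsp90aa1 and 0.04 (SE 0.24) for Hsp90ab1.

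Ptgis encodes prostacyclin synthase, a vessel wall enzyme. It was at 0.582 and 1.17 TPM in the control pools and at 0.816 and 1.54 TPM in the KO-labelled pools, on 10, 16, 15 and 33 reads. Replicate 2 was the higher in both groups and the groups overlapped, with a log2 fold change of 0.21 (SE 0.37). That difference is smaller than its SE.

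Prostaglandin D synthases made up more of the terminal synthase transcripts in the KO-labelled pools. The TPM of Ptges, Ptges2, Ptgds, Hpgds, Ptgis, Tbxas1 and Fam213b were summed, leaving out Ptges3 for its chaperone role. This sum was 117 and 93.5 TPM in the control pools and 158 and 148 TPM in the KO-labelled pools. Ptgds held 9.76% and 14.8% of it in the control pools and 29.9% and 32.4% in the KO-labelled pools. The share of Ptges was 35.6% and 28.5% in the control pools and 40.5% and 28.8% in the KO-labelled pools, which overlapped. Fam213b, which encodes a prostamide and prostaglandin F synthase, held 38.4% and 37.0% in the control pools and 15.7% and 22.4% in the KO-labelled pools. Shares of a sum are tied to each other, so a higher share of Ptgds lowers the rest.

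**Figure D2:**
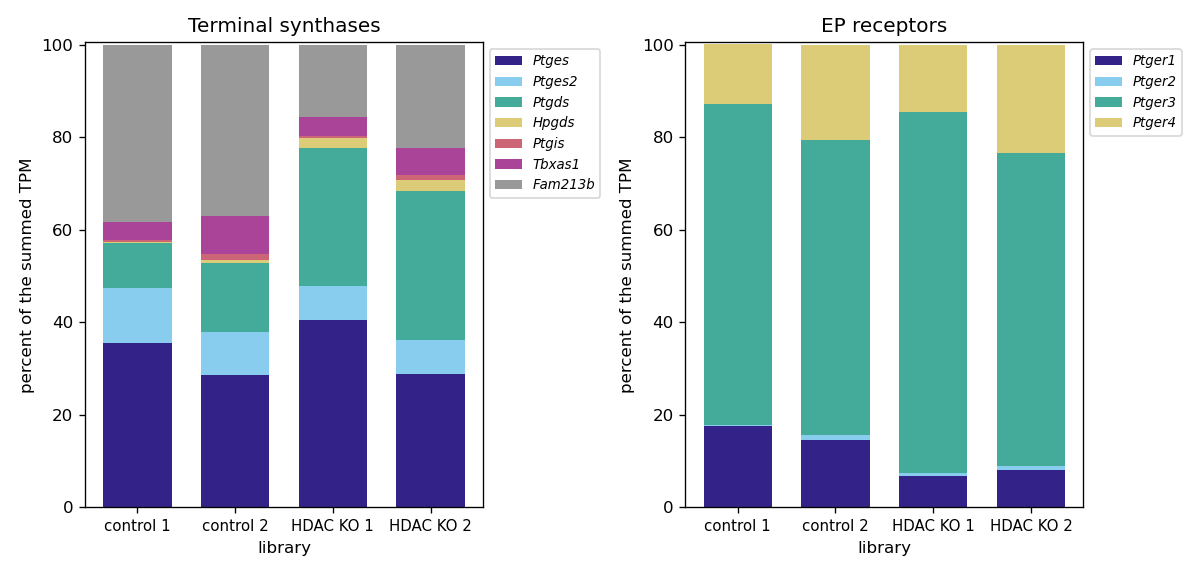
Share of each transcript in the summed TPM of the terminal synthases (left) and of the prostaglandin E receptors (right) in each library, in percent. The Ptgds segment is wider in both KO-labelled pools, and Ptger3 is the widest receptor segment in all 4 libraries.

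Of the prostaglandin E receptors, Ptger1 couples to calcium signalling and Ptger4 raises cyclic AMP. Ptger1 (chromosome 8, 83666678 to 83672753, plus strand) was at 3.37 and 3.87 TPM in the control pools and at 2.25 and 2.39 TPM in the KO-labelled pools. Both KO-labelled values lay below both controls, with a log2 fold change of -0.47 (SE 0.28), or -0.64 relative to the median of all genes. The 4 values rested on 123, 113, 88 and 109 reads. Its level is uncertain, because 71.0% of its exon bases are also exonic on the other strand, and the strand setting of the counting is not given.

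Ptger4 (chromosome 15, 5206661 to 5244187, minus strand) was at 2.47 and 5.54 TPM in the control pools and at 4.85 and 6.96 TPM in the KO-labelled pools. Control replicate 2 was above KO replicate 1, so the groups overlapped, and replicate 2 was the higher in each group. The log2 fold change was 0.52 (SE 0.40), or 0.06 without control replicate 1 and 0.97 without control replicate 2. Other genes on the opposite strand (Gm15937 and Ttc33) cover 16.5% of its exon bases.

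The remaining prostanoid receptors put these levels in context. Ptger3, an inhibitory receptor that lowers cyclic AMP, was the most abundant of the prostaglandin E receptors in each library, at 13.3 and 17.0 TPM in the control pools and 26.3 and 20.1 TPM in the KO-labelled pools. It held between 63.6% and 78.2% of the summed prostaglandin E receptor TPM, Ptger4 between 12.9% and 23.4%, and Ptger2 at most 1.21%. The share of Ptger1 was 17.6% and 14.5% in the control pools and 6.69% and 8.03% in the KO-labelled pools. The prostaglandin F receptor gene Ptgfr was at 18.5, 19.8, 19.0 and 14.4 TPM in the order control replicates 1 and 2 and KO replicates 1 and 2. The prostacyclin receptor gene Ptgir was at 0.269, 1.51, 1.13 and 1.79 TPM, and the thromboxane receptor gene Tbxa2r at 3.97, 9.65, 2.69 and 7.85 TPM in that order. Both were higher in replicate 2 of each group, and the groups overlapped for both. The prostaglandin D receptor genes were not analysed here.

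Breakdown was represented by Hpgd, the hydroxyprostaglandin dehydrogenase that inactivates prostaglandins. Hpgd (chromosome 8, 56294585 to 56321043, plus strand) was at 3.91 and 4.22 TPM in the control pools and at 3.73 and 4.19 TPM in the KO-labelled pools. The groups overlapped on 38 to 59 reads per library, with a log2 fold change of -0.03 (SE 0.26). With that SE, a modest difference in Hpgd could not have been seen.

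Ptgds and Ptgs2 moved up the order of the 9 levels, and Hpgd and Ptger4, which overlapped in the control pools, traded places. In the control pools the mean TPM ran from Ptges3 (79.0) through Ptges (34.1), Ptgs1 (29.3), Ptgds (12.6), Hpgd (4.07), Ptger4 (4.01), Ptger1 (3.62) and Ptgis (0.874) to Ptgs2 (0.518). Neighbours whose libraries overlapped were Ptges and Ptgs1, Hpgd and Ptger4, Ptger4 and Ptger1, and Ptgis and Ptgs2. In the KO-labelled pools Ptgds came next after Ptges, at 47.5 TPM, with libraries overlapping those of Ptges (53.4) and above those of Ptgs1 (28.3). Ptgs2 was at 2.08 TPM there, above Ptgis (1.18).

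A wider list of 33 prostanoid genes, from phospholipases to transporters, was read for comparison, with 27 found and 23 tested. None of the 23 passed the adjusted threshold (lowest adjusted p = 0.108 by limma) or by voom. At an unadjusted p under 0.05 by limma, 5 were higher and 2 lower, beside 13.4% and 4.46% of all tested genes. Without overlap between the groups, 7 were higher and 3 lower, near the 36.7% and 14.3% of all tested genes. Their median log2 fold change was 0.15, beside 0.17 for all genes tested and 0.21 for the 9 described. Higher by at least 2-fold without overlap were 3 of the 23, Hpgds, Ptgfrn and Abcc4, beside 7.67% of all tested genes, and Hpgds was tested only because of its level in the KO-labelled pools. None was lower to that extent, beside 2.16% of all tested genes.

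Hpgds encodes the second prostaglandin D synthase, found in macrophages and mast cells. It was at 0.326 and 0.757 TPM in the control pools and at 3.24 and 3.52 TPM in the KO-labelled pools, on 14, 26, 149 and 189 reads. It passed the filter of 1 TPM through the KO-labelled pools alone, so its direction was favoured by the filter. Ptgds was above Hpgds in each library. Ptgfrn, a regulator of the prostaglandin F receptor, was at 4.76, 4.22, 11.3 and 13.0 TPM in the order used above. Abcc4, which exports prostaglandins from cells, was at 20.0, 53.0, 66.9 and 69.4 TPM, with control replicate 2 nearer the KO-labelled pools than control replicate 1. Upstream, the cytosolic phospholipase gene Pla2g4a was at 4.37 and 5.76 TPM in the control pools and 6.73 and 6.87 TPM in the KO-labelled pools. Lower without overlap were Mgll, whose lipase releases arachidonic acid from a monoglyceride (log2 fold change -0.66, SE 0.24), Ptgr2, a prostaglandin reductase (-0.60, SE 0.19), and Fam213b (-0.45, SE 0.23).

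**Figure D3:**
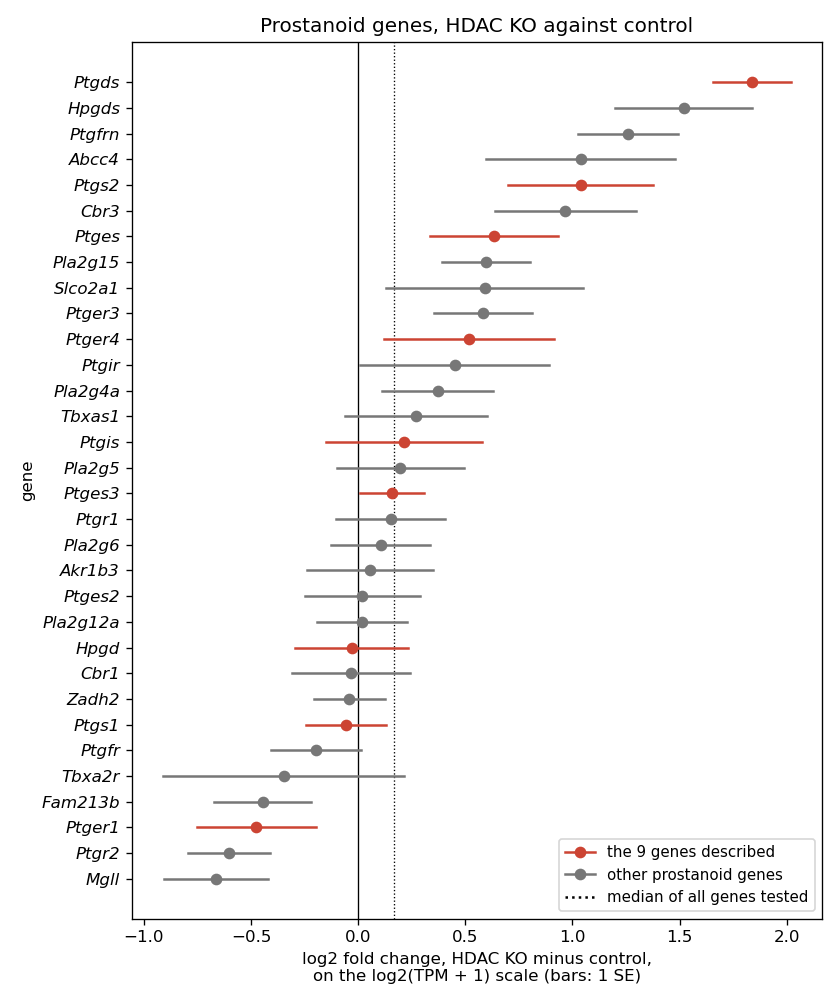
Log2 fold change of the 9 genes (red) and of the tested genes of the wider prostanoid list (grey), KO-labelled minus control on the log2(TPM + 1) scale, with bars of 1 SE. Ptgds stands highest at 1.84 and Mgll lowest at -0.66, with the dotted line at the median of all genes (0.17).

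In the leukotriene and lipoxygenase branch, which uses the same arachidonic acid, 12 of 16 genes were found and 7 tested. None passed the adjusted threshold (lowest adjusted p = 0.120 by limma) or by voom, and 3 genes stood above and 0 below the controls at an unadjusted p under 0.05 by limma, beside 13.4% and 4.46% of all tested genes. Of the 7, 4 were higher without overlap and none lower, beside 36.7% and 14.3% of all tested genes. Their median log2 fold change was 0.64, beside 0.17 for all genes. Alox5ap, the partner protein that lipoxygenase needs to make leukotrienes, was at 1.16 and 3.03 TPM in the control pools and 8.46 and 9.60 TPM in the KO-labelled pools. Ltc4s, a leukotriene C synthase, was at 3.83, 6.09, 11.0 and 11.3 TPM, and the receptor gene Cysltr1 at 0.0872, 0.546, 1.85 and 1.74 TPM in the same order. The lipoxygenase gene Alox5 itself overlapped between the groups, at 0.473, 1.05, 0.953 and 1.63 TPM. Cysltr1, Alox5 and the receptor gene Ltb4r1 had control means of 0.316, 0.760 and 0.617 TPM. These genes passed the filter of 1 TPM through the KO-labelled pools alone. Cysltr1 is in the counts of higher genes and Ltb4r1 is the gene at the median, so both were favoured by the filter.

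A list of regulators and cofactors of cyclooxygenase induction, the HSP90 genes and Nos2 among them, was read as well, and all 18 were tested. None passed the adjusted threshold (lowest adjusted p = 0.0928 by limma), and none of those fitted by voom passed there. Nos2 had no recovered reads and was not fitted by voom. At an unadjusted p under 0.05 by limma, 10 genes stood above and 0 below the controls, beside 13.4% and 4.46% of all tested genes. Without overlap 12 were higher and 1, the glucocorticoid-induced Tsc22d3, was lower, beside 36.7% and 14.3% of all tested genes. Their median was a log2 fold change of 0.78, beside 0.17 for all genes. The log2 fold change was 1.77 (SE 0.21) for Cebpb, which encodes a C/EBP transcription factor, 1.70 (SE 0.26) for the immediate early gene Egr1, and 1.52 (SE 0.21) for Zfp36, whose protein destabilises cytokine mRNAs. It was 1.69 (SE 0.57) for the cytokine gene Il1b and 1.88 (SE 0.54) for Tnf. Tnf had 0 and 16 reads in the control pools and 65 and 66 in the KO-labelled pools. With a control mean of 0.913 TPM, it passed the filter of 1 TPM through the KO-labelled pools alone. It is in both counts of higher genes. Nfkb1, an NF-kappaB subunit gene, was at 6.30 and 14.3 TPM in the control pools and 22.1 and 26.3 TPM in the KO-labelled pools. The glucocorticoid receptor gene Nr3c1 overlapped between the groups, with a log2 fold change of 0.07 (SE 0.20).

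The libraries also differed in markers of cell types. In bulk RNA, fewer cells of a type and less RNA per cell cannot be told apart. Each count of markers without overlap stands beside 36.7% of all tested genes that were higher and 14.3% that were lower in the same way. Macrophage and leukocyte markers, 9 genes, summed to 54.7 and 127 TPM in the control pools and to 573 and 660 TPM in the KO-labelled pools, and all 8 tested were higher without overlap. Lyz2 was at 13.2, 50.5, 237 and 275 TPM, and Csf1r at 8.78, 10.1, 29.8 and 39.8 TPM. Between the controls, this sum was more than doubled in replicate 2, as were the podocyte, endothelial and fibroblast sums. Ptgds (11.4 and 13.8 TPM), Ptgs2 (0.261 and 0.776 TPM) and Hpgds (0.326 and 0.757 TPM) were higher in control replicate 2 too. The counting intervals of the 2 controls overlapped for Ptgds (9.51 to 13.6 and 11.5 to 16.5 TPM). They also overlapped for Ptgs2 (0.113 to 0.514 and 0.467 to 1.21 TPM). In KO replicates 1 and 2, Ptgds was at 47.3 and 47.8 TPM, Ptgs2 at 2.17 and 1.98 TPM and Hpgds at 3.24 and 3.52 TPM. Of 6 mast cell markers only Kit had values, which do not read mast cells alone. Parietal epithelial markers, of the cells lining Bowman's capsule, summed to 219 and 274 TPM in the control pools and 898 and 687 TPM in the KO-labelled pools. Of the 9, 8 were higher without overlap. The largest in the KO-labelled pools were the keratin genes Krt8 (299 and 214 TPM) and Krt18 (234 and 131 TPM). The sum may not read parietal cells alone. The fibroblast sum was 13.5, 39.2, 56.5 and 202 TPM, with 3 of 6 higher. Dpt, 1 of these, passed the filter of 1 TPM through the KO-labelled pools alone. The part of these markers in the values of Ptgds, Ptgs2 and Hpgds was not tested.

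Other marker sums were lower or varied with the replicate. Proximal tubule markers summed to 9463 and 5876 TPM in the control pools and 2681 and 3045 TPM in the KO-labelled pools, with all 9 lower without overlap, beside the lower Mgll, Ptgr2 and Fam213b. Podocyte markers summed to 361 and 785 TPM in the control pools and 130 and 318 TPM in the KO-labelled pools, with 3 of 9 lower without overlap. Endothelial markers summed to 313 and 691 TPM in the control pools and 251 and 524 TPM in the KO-labelled pools, and all 9 overlapped between the groups. Replicate 2 of each group held the higher endothelial sum, as it did the higher Ptgis, Ptger4, Ptgir and Tbxa2r. The same order held for Ptgds, Hpgd and Tbxas1. The podocyte, mesangial, loop, macrophage and fibroblast sums were also higher in replicate 2 of each group. This order was therefore not particular to endothelium. Distal tubule and collecting duct markers summed to 1991, 1499, 1407 and 1195 TPM, with 4 of 8 tested lower. That sum was higher in replicate 1 of each group, as were Ptges, Ptgs1 and Ptges2. Loop and macula densa markers, where Ptgs2 is known to be made, summed to 1452, 1746, 1596 and 1994 TPM with overlapping groups. Of the 7, 2 were higher and 3 lower. Umod was the largest member, at 749, 902, 1189 and 1475 TPM, so the sum does not read the macula densa alone. Nos1, in the same list, was higher without overlap, at 0.496, 0.956, 1.17 and 1.98 TPM. It passed the filter of 1 TPM through the KO-labelled pools alone. Mesangial and smooth muscle markers summed to 191, 239, 229 and 288 TPM, with 3 of 9 higher and 1 lower. The part of these cell types in the values of the prostanoid genes was not tested.

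**Figure D4:**
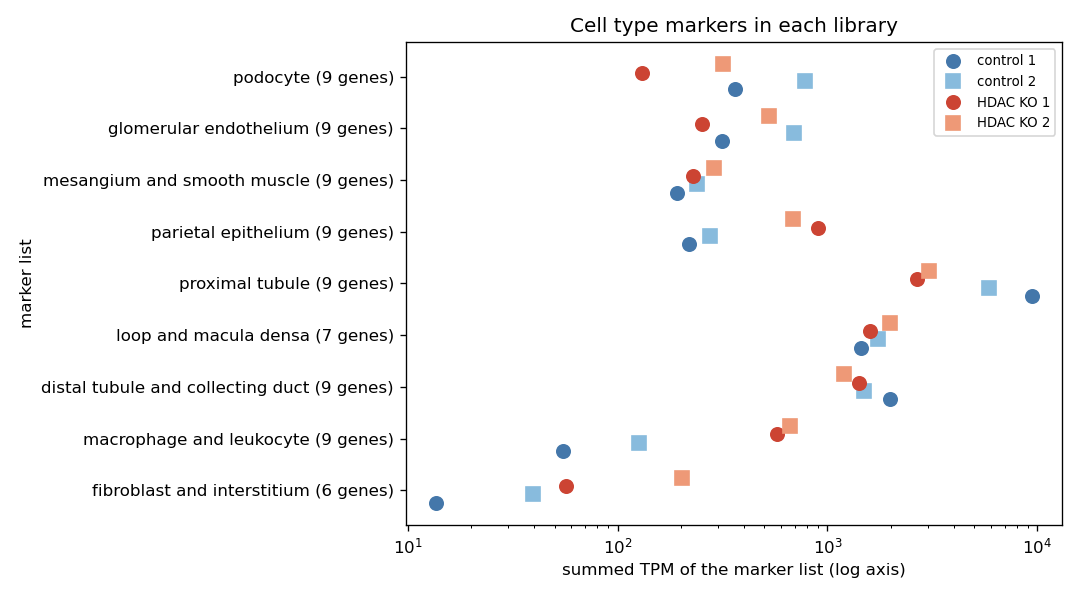
Summed TPM of each cell type marker list in each library on a log axis (circles replicate 1, squares replicate 2). The macrophage and parietal sums are higher and the proximal tubule sum lower in both KO-labelled pools. The endothelial, podocyte, mesangial, loop, macrophage and fibroblast sums are higher in replicate 2 of both groups.

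Genes with the profile nearest to Ptgds and Ptgs2 were sought by Euclidean distance of centred log2(TPM + 1) over the 4 libraries. With so few libraries, many genes share a profile, so this is a description. Nearest to Ptgds were Hist1h3b (distance 0.0982), Mir142hg (0.114), Tapbp (0.121), Plin2 (0.126) and Vat1 (0.134). Plin2, a lipid droplet coat protein gene, was at 12.4, 16.1, 50.7 and 48.7 TPM, and Hist1h3b belongs to a family of near-identical histone genes that can share reads. Nearest to Ptgs2 were Arhgap8 (0.0757), Bhlhe40 (0.0765), Tsc22d1 (0.0843), Rab13 (0.0855) and Sirpa (0.0871). Bhlhe40, a transcriptional repressor gene, was at 25.5, 36.5, 61.7 and 59.3 TPM. All 10 genes were higher in both KO-labelled pools than in either control.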

How the data were processed

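The deposited data were 1 table in which the authors give TPM for 22809 genes, with 1 column for each of 4 samples, matched by name. Per the submitters' processing notes, the tools named were fastp 0.20, STAR 2.7.9, featureCounts 2.0.0 and DESeq2 1.30.1 with build GRCm38.p6. The sources used here do not state their roles, the annotation, the strand setting or the gene filter. Multiplied by exon-union lengths of GENCODE M21 (GRCm38), the TPM of 22176 genes (97.2%) were whole multiples of 1 step per library within a relative tolerance of 1e-06, which gave the read numbers. Symbols were found for 22762 genes.

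The test was limma 3.58.1 (R 4.3.3; lmFit, eBayes with trend) on log2(TPM + 1) over the 4 libraries, for 18612 genes with a mean of at least 1 TPM. All 9 members passed this filter, Ptgs2 and Ptgis through the KO-labelled pools alone. An exact permutation test was not used with 2 libraries per group. The fit was tested on simulated counts. At an unadjusted p under 0.05 it had 2497 genes higher and 831 lower. Tables and plots used Python 3.11.15, numpy 2.4.6, pandas 2.3.3, scipy 1.17.1 and matplotlib 3.10.9.

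The members, lists and motifs were chosen with earlier results of these data known. Named were all members, receptor genes, up to 6 genes per pathway list at 2-fold or more without overlap, up to 2 markers per cell type, and for Ptgds and Ptgs2 the 5 nearest profiles among genes with a mean of at least 5 TPM. Pla2g4a, Mgll, Ptgr2, Fam213b, Alox5, Ltb4r1, the HSP90 genes, Nr3c1 and Tsc22d3 were named after their values were seen. So were the markers Umod, Nos1, Krt8, Krt18 and Dpt. Alternatives were other pseudocounts, filters, scalings, limma without trend, a replicate block, voom on recovered reads, and each library left out. Some genes that the naming rule covers are not reported here.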

Additional observations from a re-analysis of the deposited data

How the results depend on the processing

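Ptgds, Ptgs2, Ptges and Ptger4 stayed higher, and Ptger1 lower, under each alternative that could be fitted. The ranges of the log2 fold change were 1.58 to 1.97 for Ptgds, 0.36 (pseudocount 5) to 2.14 (voom on reads) for Ptgs2, 0.32 to 0.95 for Ptges, 0.06 to 0.97 for Ptger4 and -0.72 to -0.24 for Ptger1. With each library left out in turn, Ptgds ranged from 1.71 to 1.97, Ptgs2 from 0.79 to 1.29, Ptges from 0.32 to 0.95, Ptger1 from -0.55 to -0.40, Ptger4 from 0.06 to 0.97, Ptges3 from 0.11 to 0.20, Ptgs1 from -0.21 to 0.09, Ptgis from -0.03 to 0.45 and Hpgd from -0.10 to 0.04. A group left with 1 library is assumed to vary like the other. Without control replicate 2, Ptgds passed (1.97, adjusted p = 0.0111 by limma), in a range from 0.0111 to 0.344 over its alternatives. Signs turned for Ptges3 with median-ratio scaling (-0.077), for Ptgis with quantile normalization (-0.061), without control replicate 1 (-0.013) and without KO replicate 2 (-0.028), for Ptgs1 without KO replicate 2 (0.093), and for Hpgd without control replicate 2 (0.015) and without KO replicate 1 (0.036). The number of genes called across the table was 1 as reported, 0 with quantile normalization, with limma without trend and with voom, and between 0 (without control replicate 1) and 2080 (without control replicate 2) over the leave-one-out fits. The causes were not tested. With the replicate block the count was 1, and Ptgds had a log2 fold change of 1.84; the block changed no call. Same-numbered libraries deviated together weakly (correlation 0.14 over 18612 genes), and whether a number marks a shared experiment is not stated. A filter of 5 TPM left out Ptgs2, Ptgis, Ptger1, Ptger4 and Hpgd. Depth limits Ptgs2 and Ptgis most, at 8 to 76 reads per library.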
